A study of Mus musculus with 18 samples.

Results

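Renal water channels and vasopressin receptors were examined in bulk RNA sequencing of the right kidneys of 18 male wild-type C57BL/6 mice. From the 32675 genes of the expression table, 9 were chosen by name for what they encode: the aquaporins Aqp1, Aqp2, Aqp3, Aqp4, Aqp6, Aqp7 and Aqp11, the vasopressin V2 receptor Avpr2 and the V1a receptor Avpr1a. None was chosen on a measured value, although earlier results of these data were known when the genes and the gene lists were chosen. The Ctrl group (n = 6) was handled each day without being defeated. The PBS group (labelled StressPbs, n = 6) underwent chronic social defeat stress (CSDS), in which an aggressive CD-1 male attacked the mouse for 10 min a day over 14 days, and received phosphate-buffered saline intraperitoneally once a day. The FLX group (labelled StressFlx, n = 6) underwent the same CSDS and was injected with fluoxetine, a serotonin reuptake inhibitor, at 10 mg per kg per day. The labels give an age of 6 weeks, which is the age at the start. Kidneys were taken after the 14 days of defeat, at an age that is not stated. No group received fluoxetine without CSDS, and no source used here says that Ctrl mice were injected, so that CSDS and injection cannot be told apart in comparisons with Ctrl.

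Aquaporins are membrane pores through which water follows an osmotic gradient, and some also pass glycerol or ions. In the kidney Aqp1 serves the proximal tubule and the thin descending limb, and Aqp2 is the regulated water channel at the apical face of collecting duct principal cells, which return water to the blood through Aqp3 and Aqp4 on their basolateral side. Vasopressin acts on these cells through Avpr2, which raises cyclic AMP, brings AQP2 to the membrane and promotes Aqp2 transcription, whereas Avpr1a couples to phospholipase C and calcium. Aqp6 resides in vesicles of intercalated cells, Aqp7 carries glycerol and water in the straight proximal tubule, and Aqp11 is an intracellular channel of the proximal tubule.

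On GRCm38, Aqp2 (ENSMUSG00000023013, chr15:99579055-99584547, plus strand) and Aqp6 (ENSMUSG00000043144, chr15:99601400-99605477, plus strand) are separated by 16.9 kb that hold Aqp5. Aqp7 (ENSMUSG00000028427, chr4:41033074-41048139) and Aqp3 (ENSMUSG00000028435, chr4:41092722-41098183) lie 44.6 kb apart on the minus strand. Aqp1 (ENSMUSG00000004655) is at chr6:55336432-55348555, Aqp11 (ENSMUSG00000042797) at chr7:97724006-97738289 and Avpr1a (ENSMUSG00000020123) at chr10:122448499-122453452. Avpr2 (ENSMUSG00000031390) is at chrX:73892102-73894428. The remaining gene is Aqp4 (ENSMUSG00000024411). In GENCODE the antisense gene Gm48877 overlaps Avpr1a, the antisense gene AC133525.2 overlaps Aqp4, and L1cam and Arhgap4 overlap Avpr2 from the opposite strand. No source used here says whether reads were counted by strand, so reads of such partners cannot be told apart.

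Promoters are shown for the gene that passed the test between groups, Avpr1a, and for the channel whose transcription vasopressin controls, Aqp2. Each is the 250 bases before the RefSeq start site (GRCm38.p6), read 5′ to 3′ on the plus strand. The Aqp2 stretch is chr15:99578806-99579055 and the Avpr1a stretch is chr10:122448249-122448498, and capitals mark the motifs found.
Aqp2: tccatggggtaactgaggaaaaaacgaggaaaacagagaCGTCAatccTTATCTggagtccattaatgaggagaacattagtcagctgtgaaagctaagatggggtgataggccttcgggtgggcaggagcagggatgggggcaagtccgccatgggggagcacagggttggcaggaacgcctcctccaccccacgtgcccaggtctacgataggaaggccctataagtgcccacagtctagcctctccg
Avpr1a: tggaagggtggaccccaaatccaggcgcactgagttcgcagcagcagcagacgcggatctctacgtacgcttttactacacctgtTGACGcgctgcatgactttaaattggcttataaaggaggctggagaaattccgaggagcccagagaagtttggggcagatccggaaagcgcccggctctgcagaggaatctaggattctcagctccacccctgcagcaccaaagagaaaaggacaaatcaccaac
Both strands were searched for the cyclic AMP response element TGACGTCA, its half-site TGACG (which the full element contains), the GATA motif AGATAA, the NFAT core TGGAAA and, by its consensus, the glucocorticoid response element. The Aqp2 promoter held 1 half-site, on the reverse strand as CGTCA from position -211, and 1 GATA motif, as TTATCT from position -202. The Avpr1a promoter held 1 half-site, TGACG from position -165. Of 32536 promoters of the same length, 17.9% held the half-site, 9.97% the GATA motif, 1.56% the full element and 0.390% the glucocorticoid element. Aqp7 has 2 RefSeq start sites. The window of start site 1 held a GATA motif at -132 and an NFAT core at -234, the latter held by 18.6% of promoters. The window of start site 2 held no match. No match was found in the windows of Aqp1, Aqp3, Aqp6, Aqp11 and Avpr2, and Aqp4 was not searched.

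Total counts per mouse were 73000203 to 78650116 in Ctrl, 72149987 to 78711121 in PBS and 48928823 to 79061296 in FLX, where replicates 3 to 6 (up to 52073640) lay below the other 14 mice. As in the published study, 1 PBS mouse with excessive inflammatory gene expression was left out. It was not named there and was taken as replicate 6, which had the highest mean rank over S100a8, S100a9, Ccr1, Sphk1 and Cxcl1 (5.6). Groups of 6, 5 and 6 mice were thus compared with edgeR's quasi-likelihood test over 20251 genes with Benjamini-Hochberg adjustment, and a gene was called at an adjusted p below 0.05. All 9 genes passed the filter on low counts, with 102 to 95274 counts per mouse over all 18 mice. Levels are given as FPKM, which are per length and can be compared between genes.

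Aqp1 was the most abundant of the 9 transcripts, with 338 ± 37.5 FPKM (SD, n = 17 mice). Aqp2 followed with 136 ± 66.2 FPKM and lay below Aqp1 in 16 of 17 mice, Ctrl replicate 4 being the exception. Aqp3 came next with 36.7 ± 6.39 FPKM and Aqp6 with 14.9 ± 3.11 FPKM. From Aqp2 down to Aqp7 the order was the same in 17 of 17 mice, with no overlap between the ranges of neighbouring genes. The lowest 5 genes, Aqp7 (4.71 ± 0.639 FPKM), Avpr2 (4.30 ± 1.71), Aqp11 (4.20 ± 0.341), Aqp4 (3.58 ± 1.78) and Avpr1a (3.38 ± 0.949), overlapped, and their order is not resolved. The levels thus put Aqp1 first and both receptors among the lowest, at the level of Aqp4 and of the proximal tubule genes Aqp7 and Aqp11.

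The genes differed in how much mice of 1 group varied. The within-group SD of log2(FPKM + 0.1) was 0.789 for Aqp4, 0.621 for Aqp2 and 0.512 for Avpr2. These stood at the 97.7th, 96.0th and 93.5th percentile of the 12116 genes with a mean of at least 1 FPKM, whose median SD was 0.207. Aqp11, with 0.116, was at the 9.97th percentile. These 3 genes of the collecting duct were thus the most variable of the 9, while Aqp1 (0.173), Aqp3 (0.197) and Aqp7 (0.202) varied about as much as the median gene.

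**Figure D1:**
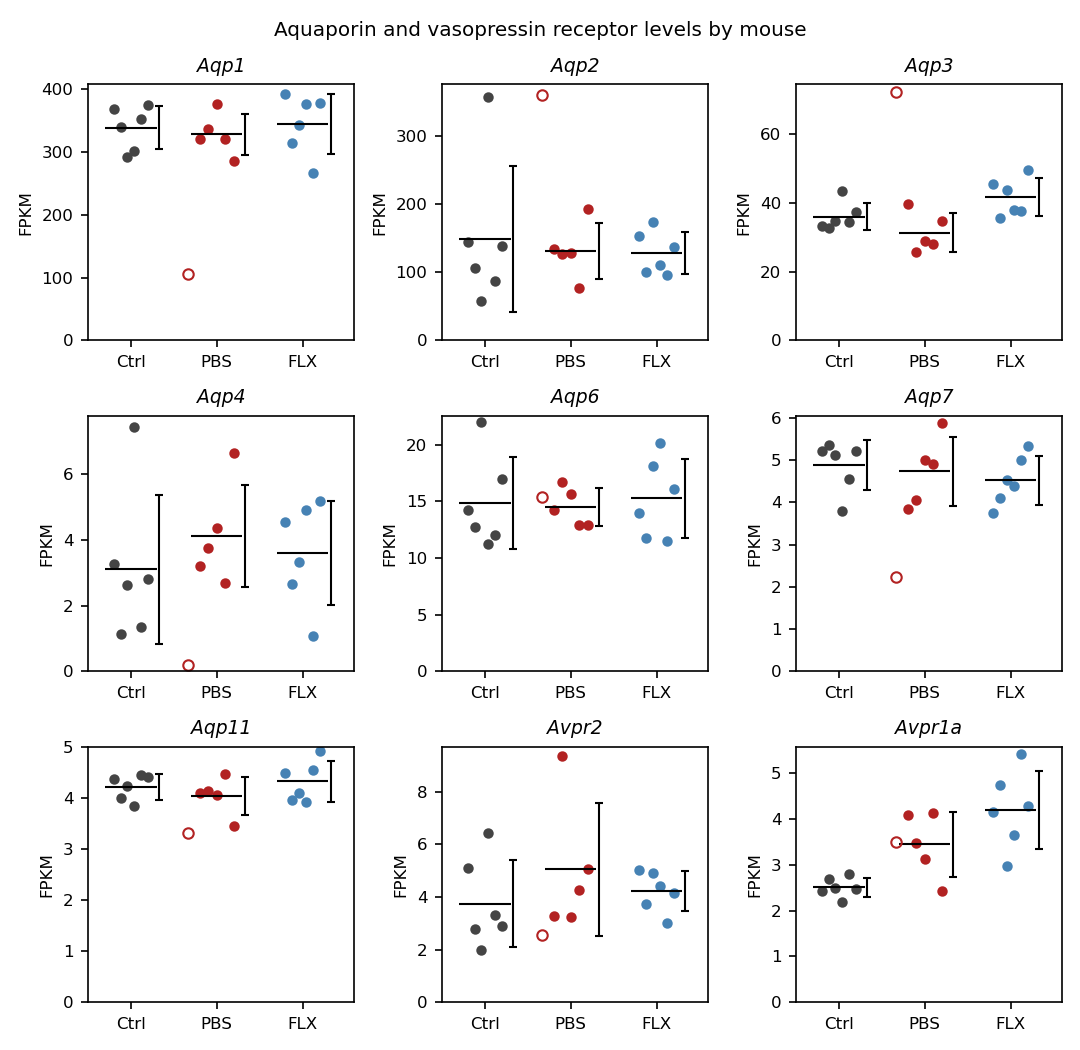
FPKM (linear vertical axes starting at 0) of the 9 genes in each mouse of the Ctrl, PBS and FLX groups. Filled points are the 17 mice compared, horizontal lines the group means, error bars 1 SD and the open circle the left-out PBS mouse. Avpr1a lies above 2.80 FPKM in all 6 FLX mice and at or below it in the 6 Ctrl mice, and the open circle lies far from the other PBS mice for Aqp1 (105), Aqp2 (360) and Aqp3 (72.2).

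In PBS versus Ctrl, none of the 9 genes was called, where 3.81% of all genes tested were (2.14% higher and 1.67% lower in PBS). At an unadjusted p below 0.05 edgeR gave 1 of 9, Avpr1a, against 17.9% of all genes. The median log2 fold change of the 9 genes was -0.04, beside -0.01 over all genes. In FLX versus PBS, none was called either, beside a background of 0.726% (0.306% higher and 0.42% lower in FLX), and 1 of 9, Aqp3, had an unadjusted p below 0.05, against 11.1% of all genes. In FLX versus Ctrl, 1 of 9, Avpr1a, was called, beside 3.67% (2.08% higher and 1.59% lower in FLX) and 20.4% at an unadjusted p below 0.05. Values of the groups did not overlap for 0, 0 and 1 of 9 genes, beside 3.52%, 2.92% and 3.4% of all genes. DESeq2 and limma also called none of the 9 in the first and second comparison. By the rule of the study (absolute log2 fold change above 1 and unadjusted p below 0.05), 0 of 9 passed in each comparison, where 3.28%, 1.9% and 2.24% of all genes did. The comparisons share mice and are not independent of each other.

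**Figure D2:**
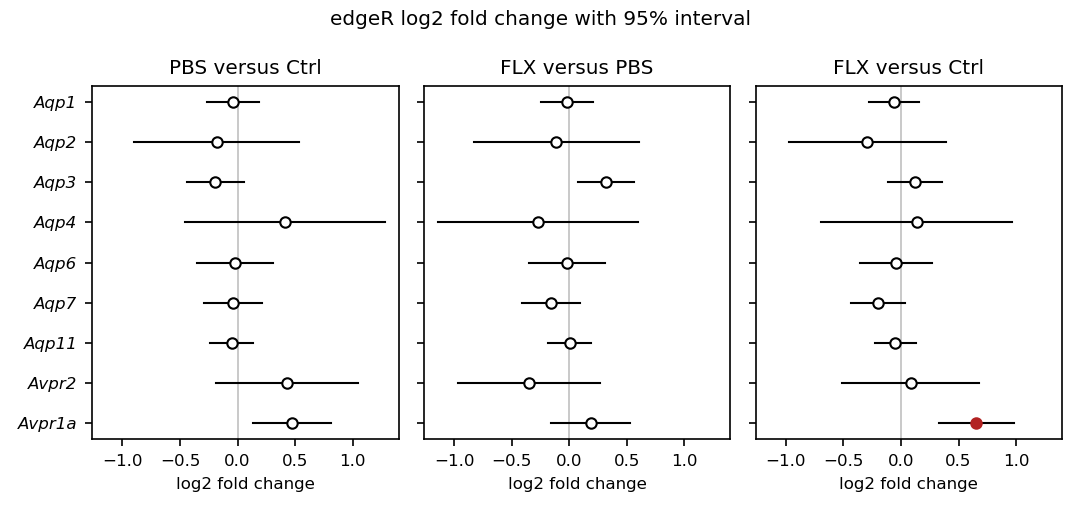
Log2 fold change (horizontal axis) of the 9 genes in PBS versus Ctrl, FLX versus PBS and FLX versus Ctrl, as edgeR estimates with 95% confidence intervals as bars. The filled red point is the called gene, Avpr1a in FLX versus Ctrl (0.65), and the widest bars belong to Aqp4 and Aqp2.

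Aqp1 ranged from 293 to 375 FPKM in Ctrl (median 347), from 287 to 377 in PBS and from 267 to 392 in FLX (median 360). The 3 groups overlapped almost entirely. PBS versus Ctrl gave a log2 fold change of -0.04 (95% interval -0.27 to 0.19), FLX versus PBS one of -0.02 (-0.25 to 0.21) and FLX versus Ctrl one of -0.06 (-0.28 to 0.16). Over the 3 comparisons these intervals span 0.825-fold to 1.15-fold. Aqp7 likewise overlapped, with 4.88 ± 0.598 FPKM in Ctrl (n = 6), 4.74 ± 0.817 in PBS (n = 5) and 4.52 ± 0.580 in FLX (n = 6). Aqp11, whose targeted loss in mice causes cystic kidneys, gave 4.21 ± 0.248, 4.03 ± 0.372 and 4.32 ± 0.394 FPKM. Its intervals were the narrowest, reaching from -0.24 to 0.19 on the log2 scale over the 3 comparisons. Some markers of the straight proximal tubule differed in the same mice. Acsm3 fell from 147 ± 17.04 FPKM in Ctrl to 35.9 ± 11.0 in PBS (log2 fold change -2.02, edgeR adjusted p = 0.000155) and was at 114 ± 44.1 in FLX. Slc5a10, a sugar transporter, rose in PBS (0.56, edgeR adjusted p = 0.00979). Thus 1 of these 5 markers fell and 1 rose, where 1.67% of all genes tested were called lower and 2.14% higher. The other 3 were not called, with log2 fold changes of -1.12 for Slc22a7 (edgeR adjusted p = 0.0691), -0.59 for Cyp7b1 (0.165) and -0.38 for Slc7a13 (0.164). Summed, the 5 gave 563 to 714 FPKM in Ctrl, 351 to 514 in PBS, where every mouse compared was below every Ctrl mouse, and 449 to 815 in FLX. Aqp7, a channel of that segment, had a log2 fold change of -0.04 there (adjusted p = 0.905), and the part of this segment in its values was not tested.

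Aqp6 gave 14.9 ± 4.04 FPKM in Ctrl, 14.5 ± 1.68 in PBS and 15.3 ± 3.47 in FLX. The highest mouse was Ctrl replicate 3 with 22.0 FPKM and the lowest Ctrl replicate 4 with 11.2, so that the spread within Ctrl held every other mouse. Log2 fold changes were -0.02, -0.02 and -0.05 in the 3 comparisons, with adjusted p of 0.905 or more by edgeR.

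Aqp2 ranged in Ctrl from 58.3 to 357 FPKM with a median of 123. The PBS mice had 134, 127, 128, 76.7 and 192 FPKM, and the FLX mice 95.6 to 173 with a median of 124. The medians thus differed little, and the highest and the lowest of the 17 mice were both Ctrl. Ctrl replicate 4, with 357 FPKM, stood above the other 5 Ctrl mice, whose highest value was 145. edgeR gave a log2 fold change of -0.18 for PBS versus Ctrl (SE 0.34, 95% interval -0.90 to 0.54, adjusted p = 0.840), of -0.11 for FLX versus PBS (-0.83 to 0.60) and of -0.29 for FLX versus Ctrl (-0.98 to 0.39). Without Ctrl replicate 4, PBS versus Ctrl became 0.29 and FLX versus Ctrl 0.17. The intervals span 0.508-fold to 1.52-fold, and no direction was resolved at this spread.

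Aqp3, the basolateral channel for water and glycerol, lay between 32.7 and 43.6 FPKM in Ctrl (median 34.7). The PBS mice had 39.6, 25.6, 29.0, 28.0 and 34.6 FPKM and the FLX mice 35.5 to 49.7 (median 40.9). All 6 FLX mice were above the PBS median and 3 above every PBS mouse, while 3 of 5 PBS mice were below every Ctrl mouse. The log2 fold change was 0.32 in FLX versus PBS (SE 0.12, 95% interval 0.07 to 0.57, unadjusted p = 0.0141, edgeR adjusted p = 0.268), which does not pass the adjustment. The exact permutation test on log2(FPKM + 0.1) gave p = 0.026, one of 27 such tests over 9 genes and 3 comparisons. It tested a difference of 0.42 on FPKM, where the median difference over all genes was 0.08. In PBS versus Ctrl the log2 fold change was -0.19 (-0.44 to 0.05). With all 6 PBS mice, including the left-out mouse at 72.2 FPKM, the log2 fold changes became 0.05 (FLX versus PBS) and 0.07 (PBS versus Ctrl).

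Aqp4 ranged from 1.13 to 7.42 FPKM in Ctrl with a median of 2.73. The PBS mice had 3.19, 3.74, 4.36, 2.67 and 6.64 FPKM, and the FLX mice 1.06 to 5.17 with a median of 3.94. Levels near 1 FPKM and of over 5 FPKM occurred in both Ctrl and FLX. edgeR gave a log2 fold change of 0.41 for PBS versus Ctrl (SE 0.41, 95% interval -0.46 to 1.28), of -0.27 for FLX versus PBS (-1.14 to 0.59) and of 0.14 for FLX versus Ctrl (-0.69 to 0.97). These are the widest intervals of the 9 genes.

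In a whole kidney, fewer cells of a type and less RNA per cell cannot be told apart, so Aqp2, Aqp3, Aqp4 and Avpr2 were also set against 6 other principal cell genes (Fxyd4, Hsd11b2, Gata3, Elf5, Scnn1b and Scnn1g). The summed level of these genes was 88.9 to 114 FPKM in Ctrl, 101 to 144 in PBS and 100.5 to 134 in FLX, and all 6 were detected. The epithelial sodium channel subunit Scnn1g rose from 9.18 ± 1.21 FPKM in Ctrl to 11.6 ± 0.870 in PBS (log2 fold change 0.35, edgeR adjusted p = 0.0458) and 12.6 ± 0.982 in FLX (0.37, adjusted p = 0.0312), 1 of 6 in either comparison. Over all genes tested, 2.14% were called higher in PBS versus Ctrl and 2.08% in FLX versus Ctrl. These Scnn1g calls were lost in 14 and in 11 of 26 alternative fits. Relative to the mean of the 6 genes, Aqp3 was 0.40 lower on the log2 scale in PBS than in Ctrl (exact permutation p = 0.0476) and 0.45 higher in FLX than in PBS (exact permutation p = 0.0346). After Benjamini-Hochberg adjustment over the 12 tests of 4 genes and 3 comparisons, both had an adjusted p of 0.286 and neither passed. With all 6 PBS mice the differences were -0.19 and 0.24. The 10 other relative differences had an adjusted p of 0.789 or more.

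Avpr2 had values of 1.99 to 6.43 FPKM in Ctrl (median 3.12). The PBS mice had 3.29, 9.35, 3.24, 4.28 and 5.08 FPKM, and the FLX mice 3.02 to 5.05 (median 4.29). PBS replicate 2 stood well above the other mice, and without it the PBS values fell within the Ctrl range. In that mouse the overlapping L1cam (1.89 FPKM) and Arhgap4 (2.02 FPKM) lay within the ranges over 17 mice of 0.907 to 3.04 and 1.73 to 3.17. The part of reads from these 2 genes in the Avpr2 values was not tested. edgeR gave a log2 fold change of 0.43 for PBS versus Ctrl (SE 0.29, 95% interval -0.19 to 1.05, adjusted p = 0.485), of -0.35 for FLX versus PBS (-0.96 to 0.27) and of 0.08 for FLX versus Ctrl (-0.51 to 0.67). Without PBS replicate 2 the first value was 0.08.

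Avpr1a was the gene called. The 6 Ctrl mice had 2.18 to 2.80 FPKM with a median of 2.47. The PBS mice had 4.07, 3.46, 3.13, 4.13 and 2.42 FPKM. The FLX mice had 2.97 to 5.41 FPKM with a median of 4.21, and 6 of 6 were above every Ctrl mouse, whereas 4 of 5 PBS mice were. Mean levels were 2.51 ± 0.213 FPKM in Ctrl (n = 6), 3.44 ± 0.710 in PBS (n = 5) and 4.20 ± 0.846 in FLX (n = 6). In FLX versus Ctrl Avpr1a rose 1.57-fold (95% interval 1.26 to 1.97), a log2 fold change of 0.65 (SE 0.16, edgeR adjusted p = 0.0285). The exact permutation test gave p = 0.00216, the smallest that 6 against 6 mice allow. In PBS versus Ctrl the log2 fold change was 0.47 (SE 0.16, 95% interval 0.13 to 0.81, unadjusted p = 0.00943), which did not pass after adjustment (edgeR adjusted p = 0.121). FLX versus PBS gave 0.19 (SE 0.16, -0.16 to 0.53, adjusted p = 0.765), so a difference between the 2 stressed groups was not shown.

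The size of the Avpr1a difference was steadier than its call. Leaving out 1 mouse at a time gave log2 fold changes of 0.58 to 0.74 in FLX versus Ctrl, but the adjusted p rose above 0.05 without Ctrl replicate 1 (0.0619), 2 (0.0521), 4 (0.0596) or 6 (0.0543) and without FLX replicate 2 (0.0561) or 5 (0.0676). FLX replicates 1 and 2, whose depth matched that of Ctrl, had 4.14 and 4.73 FPKM, and the deeper pair alone gave 0.79 (adjusted p = 0.184). Leaving out PBS replicate 5 brought Avpr1a past the threshold in PBS versus Ctrl (0.58, edgeR adjusted p = 0.0422). Fat markers (Adipoq, Plin1, Cidec, Lep and Ucp1) summed to 404 FPKM in PBS replicate 5 and 276 in FLX replicate 5. They summed to 0.907 to 45.7 FPKM in Ctrl, and the part of fat in the Avpr1a values was not tested. Intercalated cell markers, listed because Avpr1a has been localized to these cells, gave a summed 61.7 to 74.6 FPKM in Ctrl and 66.5 to 86.1 in FLX, with 0 of 5 called. Endothelial markers gave 23.3 to 35.1 FPKM in Ctrl and 30.7 to 46.6 in FLX, with 1 of 5 called (Tek, 4.66 ± 0.635 to 7.37 ± 1.06 FPKM). Over all genes tested, 3.67% were called in FLX versus Ctrl. The part of either cell type in the Avpr1a result was not tested.

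Other members of both families were low in these kidneys. Aqp8, which also lies in inner mitochondrial membranes, had 0.136 to 1.06 FPKM in Ctrl (median 0.319), 0.172 to 0.320 in PBS and 0.734 to 1.13 in FLX (median 0.835). All 6 FLX mice lay above every PBS mouse, and FLX versus PBS gave a log2 fold change of 1.82 (SE 0.41, edgeR adjusted p = 0.0449). The left-out PBS mouse had 0.937 FPKM, within the FLX range, and with it the value was 1.28 (adjusted p = 0.223). In all, the Aqp8 call was lost in 17 of 26 alternative fits. Aqp5 reached at most 0.849 FPKM, and Aqp9, Aqp12 and Mip were at or near 0 and not tested. Of the peptide genes and other receptors, the oxytocin receptor Oxtr had a mean of 0.0581 FPKM and Oxt was listed at 0 in 16 of 17 mice, while Lnpep, an aminopeptidase that degrades both peptides, had 2.95 FPKM and was not called in any comparison.

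Downstream of Avpr2, 20 genes of cyclic AMP signalling were listed. In PBS versus Ctrl 2 of 20 rose, beside 2.14% of all genes tested, and none fell, beside 1.67%, with a median log2 fold change of 0.23 beside -0.01 over all genes. Pde4d, a phosphodiesterase that breaks down cyclic AMP, rose from 0.578 ± 0.0843 to 1.17 ± 0.783 FPKM (log2 fold change 1.004, edgeR adjusted p = 0.0335). Its PBS median was 0.870 FPKM and its highest PBS mouse was at 2.55. Without PBS replicate 5 the log2 fold change was 0.53 (edgeR adjusted p = 0.0559). PBS replicate 5 was also the mouse with a fat marker sum of 404 FPKM, and the part of fat in these values was not tested. Prkar1a, a regulatory subunit of protein kinase A, rose from 37.5 ± 1.08 to 44.7 ± 2.51 FPKM (0.26, adjusted p = 0.0261). In FLX versus Ctrl 2 of 20 rose, beside 2.08% of all genes, namely Prkar2a, another regulatory subunit (5.51 ± 0.745 to 7.63 ± 0.578 FPKM, 0.38, adjusted p = 0.0119), and the transcription factor Creb1 (1.25 ± 0.274 to 1.81 ± 0.166 FPKM, 0.46, adjusted p = 0.0375). None of the 20 was called in FLX versus PBS, beside 0.726% of all genes. The Prkar2a call was lost in 1 of 26 alternative fits, that of Prkar1a in 9, that of Creb1 in 12 and that of Pde4d in 13.

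Of 21 genes that move AQP2 between vesicles and membrane or degrade it, 1 rose in PBS versus Ctrl (background 2.14%) and 1 fell in FLX versus Ctrl (background 1.59%). The first was Ezr, ezrin, which links membrane proteins to actin (67.7 ± 7.48 to 92.0 ± 19.6 FPKM, log2 fold change 0.46, edgeR adjusted p = 0.0344), a call lost in 12 of 26 alternative fits. The second was Stx3, a syntaxin of apical vesicle fusion (9.76 ± 0.645 to 7.74 ± 0.497 FPKM, -0.42, adjusted p = 0.0126). Every Stx3 value of FLX lay below every value of Ctrl (6 of 6 mice). Of 12 transcription factors that act on Aqp2, such as Nfat5, Gata3 and Elf3, none was called in any comparison. The shares of all genes called were 3.81% in PBS versus Ctrl, 0.726% in FLX versus PBS and 3.67% in FLX versus Ctrl. Creb1, which binds cyclic AMP response elements and was called in FLX versus Ctrl, was counted with cyclic AMP signalling and is not among these 12.

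As receptors that can oppose vasopressin in the collecting duct, 10 genes were listed. Their levels are those of the whole kidney, and the part of the collecting duct in them was not tested. Adra2b, the alpha-2B adrenoceptor, rose from 19.1 ± 1.81 FPKM in Ctrl to 28.0 ± 2.28 in PBS (log2 fold change 0.55, edgeR adjusted p = 0.00144) and 25.2 ± 2.45 in FLX (0.32, adjusted p = 0.0441). All 5 PBS mice and all 6 FLX mice were above every Ctrl mouse. The left-out PBS mouse had 11.0 FPKM, below the other 17, and with it the adjusted p were 0.209 and 0.353. The call in FLX versus Ctrl was lost in 17 of 26 alternative fits. The published study counted Adra2b among the adrenergic receptor genes that stayed unaltered in both stressed groups. Its rule for differential genes asked for an absolute log2 fold change above 1, which neither value here reached. Bdkrb2, the bradykinin B2 receptor, rose from 0.256 ± 0.0948 to 0.700 ± 0.491 FPKM in PBS versus Ctrl (1.47, adjusted p = 0.0426), so that 2 of 10 rose in that comparison, beside 2.14% of all genes. The Bdkrb2 call was lost in 15 of 26 alternative fits, and without PBS replicate 4 its log2 fold change was 0.94 (adjusted p = 0.184).

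Genes for urea transport and for the osmolytes of the concentrated medulla were listed as 9. In PBS versus Ctrl 2 of 9 rose, beside 2.14% of all genes. Slc38a2, a neutral amino acid transporter that cells induce under hypertonicity, rose from 4.49 ± 0.653 to 7.19 ± 1.45 FPKM (log2 fold change 0.70, edgeR adjusted p = 0.00942) and was also higher in FLX (7.22 ± 1.23 FPKM, 0.60, adjusted p = 0.0209), with every PBS and FLX mouse compared above every Ctrl mouse. The FLX call was lost in 4 of 26 alternative fits and the PBS call in none. Slc5a3, the myo-inositol transporter, rose from 6.88 ± 2.45 to 13.1 ± 2.30 FPKM (0.95, adjusted p = 0.0252). With all 6 PBS mice Slc5a3 was no longer called (0.82, adjusted p = 0.0667), and in all its call was lost in 7 of 26 alternative fits. The urea transporter Slc14a2, a gene of the inner medulla and thin limb, ranged from 0.114 to 13.9 FPKM over the 17 mice and was not called. The amount of inner medulla in a sample was not recorded in the sources used here and its part in these values was not tested.

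Members also varied together or apart between mice of 1 group. As a description, Pearson's r was computed over 17 mice on deviations of log2(FPKM + 0.1) from the group means, all values of a mouse coming from 1 library. Aqp2 went with Aqp4 (r = 0.68, Spearman's rho 0.74), Avpr2 (0.64) and Aqp3 (0.58), and Aqp4 with Aqp3 (0.52) and Avpr2 (0.51). Without the 2 mice farthest from the median of Aqp2, its r with Aqp4 was 0.70 and that with Avpr2 0.33. Avpr1a ran the other way, with r = -0.67 against Aqp4 (rho -0.78) and -0.57 against Aqp2, and 0.61 with Aqp11. The neighbours Aqp2 and Aqp6 gave r = -0.26 and Aqp3 and Aqp7 -0.16. Without the 2 mice farthest from the median these became 0.42 and 0.39, so that neither has a settled sign.

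**Figure D3:**
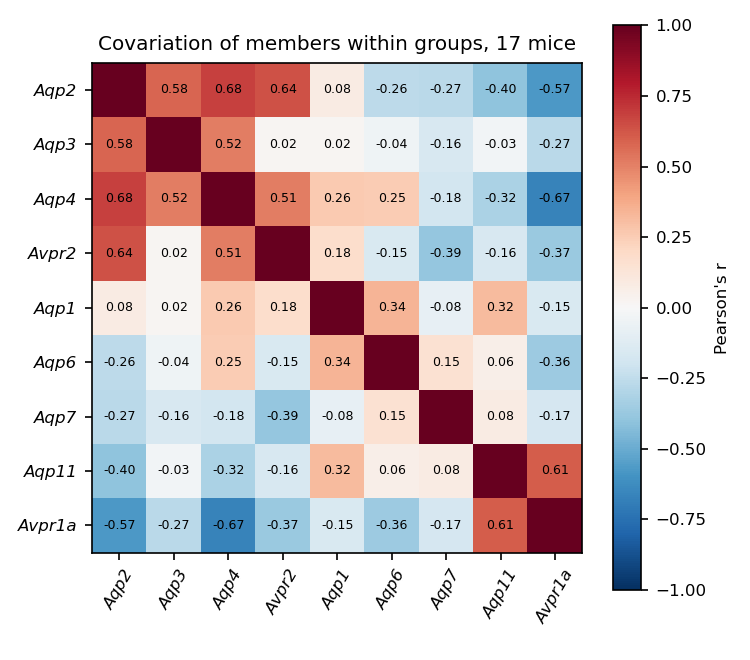
Pearson's r between the 9 genes over 17 mice, on deviations of log2(FPKM + 0.1) from the group means; red is positive and blue negative, and each cell prints its r. Aqp2, Aqp3, Aqp4 and Avpr2 form the red block at upper left (except Aqp3 with Avpr2, 0.02), and Avpr1a is negative with each of them.

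The deviations were also set against the marker lists, using only list genes with a mean of at least 1 FPKM. These were 5 of 6 principal cell genes and 7 of 9 urea and osmolyte genes. Aqp4 went with the mean of the principal cell genes (r = 0.72) and of the urea and osmolyte genes (0.71), and with the urea transporter Slc14a1 (0.78). Aqp2 went with the principal cell genes (0.63) and with Fxyd4 among them (0.69). The genes of that list did not all go one way, since Hsd11b2 gave -0.25 with Aqp2 and -0.27 with Aqp4. Avpr1a was opposite to the urea and osmolyte genes (-0.66) and to Slc14a1 (-0.79), and gave 0.45 with the intercalated cell and 0.52 with the proximal tubule markers. Slc14a1 was low, with a mean of 0.758 FPKM. The more abundant Slc14a2 (mean 7.79 FPKM) gave 0.54 with Aqp4 and -0.61 with Avpr1a. Aqp6 had r = 0.03 with the 5 intercalated cell markers and 0.84 (rho 0.75) with the 5 thick ascending limb markers. Among the latter, Slc12a1, the sodium, potassium and chloride cotransporter of that limb, gave 0.92. Without the 2 mice farthest from the median, the value with the limb markers was 0.85.

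**Figure D4:**
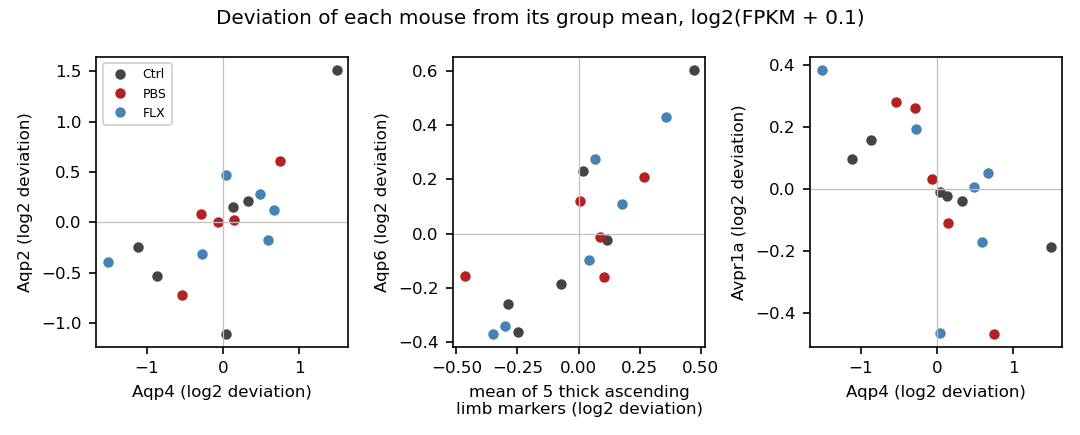
Each point is 1 of 17 mice, placed by the deviation of its log2(FPKM + 0.1) from its group mean (log2 units on both axes) and coloured by group. From left to right: Aqp2 rises with Aqp4 (r = 0.68), Aqp6 rises with the mean of 5 thick ascending limb markers (0.84), and Avpr1a falls with Aqp4 (-0.67).

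Over 12116 genes with a mean of at least 1 FPKM, the 3 with the highest r to each member were named. They were Mfsd4a (0.93), Slc12a1 (0.92) and Enah (0.92) for Aqp6, Tnn (0.86), Epn3 (0.86) and Wnt9b (0.84) for Aqp4, and Gm6665 (0.91), Ubl3 (0.89) and Epor (0.86) for Aqp2. Aqp3 was most like Gm7862 (0.84), Chn2 (0.80) and Cep89 (0.78), and Avpr2 like Cblc (0.86), Zdhhc12 (0.85) and Bsnd (0.82), the barttin subunit of renal chloride channels. For Avpr1a they were Ap2a2 (0.87), Gpr89 (0.82) and Snx22 (0.81), and for Aqp1 Methig1 (0.90), Mettl7a2 (0.89) and Kcnk1 (0.89). Aqp7 was most like Fbxl4 (0.83), Tbc1d15 (0.80) and Lmbr1 (0.80), and Aqp11 like Gpr137b, Mcm6 (both 0.76) and Slc10a2 (0.74), the weakest of these likenesses. No member was among the 3 most like another. As the highest of many values over 17 mice, these r are high by selection. Without the 2 mice farthest from the median of the member, they ran from 0.57 (Slc10a2 with Aqp11) to 0.89 (Mfsd4a with Aqp6).

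The PBS mouse left out of these comparisons had an extreme value for several members. Its Aqp1 was 105 FPKM, where the other 17 mice had at least 267, and its Aqp4 was 0.194 FPKM, below the lowest of the others at 1.06. Aqp7 (2.23 FPKM) and Aqp11 (3.31) were also below the other 17, while Aqp2 (360) and Aqp3 (72.2) were above them. Aqp6 (15.4), Avpr2 (2.55) and Avpr1a (3.49) lay within the range of the other mice. In this mouse Slc14a2 was at 0.0692 FPKM, proximal tubule markers summed to 694 FPKM (1038 to 1324 in Ctrl) and tubule injury markers to 3969 (287 to 535 in Ctrl). The part of these in its aquaporin values was not tested.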

How the data were processed

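Poly(A) RNA of 18 right kidneys was sequenced in read pairs from strand-marked libraries. According to the published methods, the authors used fastp for cleaning, HISAT-3N for alignment (GRCm38) and StringTie for assembly. The submitters' processing notes name cutadapt 1.9, HISAT2 2.0.4, UMI-tools, StringTie 1.3.4d, DESeq2 and edgeR. For each gene the authors deposited an FPKM value (fragments per length and library size, normalized by the authors) and an estimated count per mouse. The deposited estimated counts are whole, yet the value 4 occurs more often (720 genes in the median mouse) than 3 (484.5), so they were taken as estimates. No source used here names the tool behind them.

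Counts were tested with edgeR 4.0.16 (R 4.3.3; quasi-likelihood test, two-sided, TMM scaling, filterByExpr) in 1 model over 3 groups and 17 mice, after PBS replicate 6 was left out. On simulated data the fit was checked beforehand. Single genes were also compared by an exact two-sided permutation test of mean log2(FPKM + 0.1) in scipy 1.17.1; the smallest p is 0.00433 for 5 against 6 mice and 0.00216 for 6 against 6. FPKM carry a different scaling: in FLX versus PBS the median log2 difference over all genes was 0.08 on FPKM and -0.0027 in edgeR. In FLX versus Ctrl it was 0.06 on FPKM and -0.0092 in edgeR. Exact permutation tests of single genes and FPKM by mouse carry this shift, and fold changes are from edgeR. Alternatives were DESeq2 1.42.0, upper-quartile scaling, no filter, limma 3.58.1 on log2(FPKM + 0.1), + 1 and + 0.01, all 6 PBS mice, a replicate block, FLX replicates 1 and 2 only and each of 17 mice left out, 26 in all. Mice are individual animals, but the labels do not say how libraries were batched.

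The genes and the gene lists were chosen with earlier results of these data known. Named genes are the 9 members, listed pathway genes called in any comparison (all of them, beyond a limit of 8 per comparison, after their values were seen) and the 3 genes most like each member. Gene positions are those of the table, equal to GENCODE vM21 for all members but Avpr2; promoter sequence is from RefSeq. Avp and Avpr1b were not analysed here.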

Additional observations from a re-analysis of the deposited data

Results flagged for a closer look

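Over 36 sets of values (9 genes in Ctrl, in 5 and in 6 PBS mice and in FLX), Dixon's test at the 95% level marked 5. Chance marks about 1 in 20 independent sets. The sets here are not independent, since the PBS sets share mice and a mouse can be marked for several genes. The count of marks therefore cannot be read as more or fewer than chance. Aqp2 in Ctrl replicate 4 was at 357 FPKM, far above the other 5 Ctrl mice, and the same mouse had the highest Aqp4 of Ctrl with 7.42 FPKM. In that mouse the principal cell genes summed to 114 FPKM, the highest of Ctrl (88.9 to 114). Ctrl replicate 6 had a similar sum of 110 FPKM with Aqp2 at 139 FPKM. The part of principal cells in the Aqp2 value of Ctrl replicate 4 was not tested. Avpr2 in PBS replicate 2 was at 9.35 FPKM, above the other 5 PBS mice. It was marked among all 6 PBS mice but not among the 5 compared. Aqp1 at 105 FPKM was the lowest and Aqp3 at 72.2 FPKM the highest of 6 PBS mice, both in replicate 6, the mouse left out of the comparisons.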

How the results depend on the processing

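The call of Avpr1a in FLX versus Ctrl held in 18 of 26 alternatives, over which its log2 fold change ran from 0.55 to 0.79. It was lost with FLX replicates 1 and 2 only (0 members called) and with a replicate block (0 members called, adjusted p = 0.0759). Leaving out 1 mouse at a time gave 0 to 1 members called in FLX versus Ctrl and 0 to 1 in PBS versus Ctrl. In FLX versus PBS no member was called in any of the 26 alternatives. Same-numbered mice did not deviate together (2 of 16 pairs with r above 0.1, range -0.20 to 0.23), so the block pairs mice that share only a number; with it the called genes over the whole table were 419, 67 and 258 in PBS versus Ctrl, FLX versus PBS and FLX versus Ctrl, against 772, 147 and 744, and in 6 of 32 comparisons of a mouse with another group it correlated best with its own number.

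Differences that were not called have no settled direction: of 702 alternative values for the 9 genes in 3 comparisons, 56 changed sign, none of them for Avpr1a. With all 6 PBS mice, the levels relative to principal cell genes moved from -0.18 to 0.08 for Aqp2 and from 0.22 to 0.09 for Avpr2 (PBS versus Ctrl), to -0.24 for Aqp2 and from -0.12 to 0.0099 for Avpr2 (FLX versus PBS), to -0.19 and 0.24 for Aqp3 and -0.22 and 0.38 for Aqp4 (PBS versus Ctrl and FLX versus PBS); the added mouse is the one with Aqp4 at 0.194 and Aqp3 at 72.2 FPKM. Other counts over the whole table that moved by more than 1.5 times were 1413, 498 and 1615 with DESeq2, 88 and 378 without a filter (FLX versus PBS and FLX versus Ctrl), 329 and 1436 with limma on log2(FPKM + 1), and 354 in FLX versus Ctrl with all 6 PBS mice. With FLX replicates 1 and 2 only, edgeR called 0 in FLX versus PBS (1323 at an unadjusted p below 0.05) and 4 in FLX versus Ctrl; this fit holds 2 FLX mice. Leaving out 1 mouse gave 388 to 1662, 47 to 250 and 271 to 3099 calls over the whole table; the highest count of each came without Ctrl replicate 3, where Avpr1a had an adjusted p of 0.0157 in FLX versus Ctrl. The causes were not tested. Counts were lowest for Aqp4 (102, in the left-out mouse), Avpr1a (449) and Avpr2 (513), and the spread between mice limits Aqp2, Aqp4 and Avpr2.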
